A study of Homo sapiens with 33 samples.

Results

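The regions described here are the strongest clusters of hnRNPA1 irCLIP signal: every cluster with a score of 1000 or more in 4 deposited cluster lists. There were 13397 such high-score clusters among 2075166 distinct clusters (0.646%), named to 1780 genes and falling into 5477 merged regions. The clusters were selected on this score, a whole number the authors gave each cluster, so scores and counts of clusters past 1000 are descriptions with no test. No source used here states the score's unit, and scores rank clusters within a list and are not compared in size between lists.

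The study examined an amyotrophic lateral sclerosis mutation, D262V, in the low complexity domain of hnRNPA1. irCLIP was done in SH-SY5Y, a neuroblastoma line, with wildtype (WT) or D262V mutant hnRNPA1, and in Flp-In T-REx 293, an embryonic kidney line induced with 1 µg/mL tetracycline for 72 hr to express a WT or a D262V transgene. Each of these 4 groups had 3 samples that the authors merged into 1 list, so no spread between replicates exists for a cluster and no test between lists was possible. Poly(A) RNA-seq had 3 libraries a group, and the groups used here were undifferentiated SH-SY5Y cells, WT and homozygous D262V, and the induced Flp-In cells, WT and D262V. The labels of the SH-SY5Y irCLIP samples give neither zygosity nor differentiation, and the labels do not say that endogenous HNRNPA1 was removed from the Flp-In cells, whose WT group therefore also carries an induced transgene. How many clones stand behind a group is not given either, nor whether its samples were separate cultures, so p-values measure only the spread between these samples.

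hnRNPA1 is an abundant nuclear protein that binds single-stranded RNA through tandem RNA recognition motifs, shuttles between nucleus and cytoplasm, and is best known as a repressor of splice sites. It favours UAGG-like motifs, binds along introns of pre-mRNAs, and also binds structured RNAs such as primary microRNA transcripts and the 7SK RNA that holds back the elongation factor P-TEFb. In irCLIP, ultraviolet light crosslinks protein to RNA in living cells, the complexes are purified through an infrared-dye adaptor, and stacks of reads along a transcript are called as clusters. Signal of this kind grows with the amount of the transcript as well as with binding, and no input control was used here.

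A few high-score clusters lay on short RNAs or gene starts whose sequence can be shown in full. The microRNA hairpins and the 250 bases before annotated gene starts are from RefSeq (GRCh38.p14), the clusters are on hg38, and capitals mark the bases under high-score clusters. The hairpins are written 5′ to 3′ and were chosen because clusters named them and covered most of their bases: MIR1248 (chr3:186786672-186786777, plus strand, inside EIF4A2), MIR6758 (chr12:57512688-57512750, plus strand, inside MARS1), MIR3671 (chr1:65057755-65057842, minus strand, inside JAK1) and MIR8063 (chr15:36972821-36972901, minus strand, inside MEIS2).
MIR1248: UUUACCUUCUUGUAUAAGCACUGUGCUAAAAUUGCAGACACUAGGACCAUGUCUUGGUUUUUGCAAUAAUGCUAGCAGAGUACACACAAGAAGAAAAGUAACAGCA
MIR6758: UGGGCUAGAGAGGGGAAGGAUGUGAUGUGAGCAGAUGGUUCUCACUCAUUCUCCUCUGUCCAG
MIR3671: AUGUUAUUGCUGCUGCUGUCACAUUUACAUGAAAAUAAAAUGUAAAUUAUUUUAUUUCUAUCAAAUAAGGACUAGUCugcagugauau
MIR8063: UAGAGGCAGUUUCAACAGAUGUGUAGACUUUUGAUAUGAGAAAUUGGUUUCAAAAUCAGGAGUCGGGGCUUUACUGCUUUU
Clusters covered 106 of 106 bases of MIR1248, 63 of 63 of MIR6758, 77 of 88 of MIR3671 and 81 of 81 of MIR8063. A cluster of 3940 in Flp-In D262V also named MIR10B, but covered 2 of its 110 bases, and that hairpin is not printed. MIR1248 overlaps the small nucleolar RNA gene SNORA81, which the cluster names give beside it. Searched on the strand printed and its complement as TAGG and CCTA (UAGG and CCUA in RNA), the hnRNPA1-type motif occurred once in MIR1248, as UAGG, and in none of the covered bases of the others. Across 1562 hairpins, 21.3% held TAGG and 18.7% CCTA.

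Gene-start windows are shown for MALAT1 (chr11:65498795-65499044, plus strand), CEBPE (chr14:23119256-23119505, minus strand) and GATA3 (chr10:8054438-8054687, plus strand), because high-score clusters reached across these starts in all 4 lists, in the Flp-In lists and in the SH-SY5Y lists, respectively. The MALAT1 window lies before the start given in the RefSeq start table, which is inside the longest annotated span of the gene.
MALAT1: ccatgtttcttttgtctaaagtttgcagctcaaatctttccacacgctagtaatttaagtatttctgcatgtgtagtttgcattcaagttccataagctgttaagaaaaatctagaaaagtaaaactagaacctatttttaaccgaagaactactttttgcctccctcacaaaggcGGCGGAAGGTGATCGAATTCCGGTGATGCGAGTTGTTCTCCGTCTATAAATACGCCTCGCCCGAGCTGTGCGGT
CEBPE: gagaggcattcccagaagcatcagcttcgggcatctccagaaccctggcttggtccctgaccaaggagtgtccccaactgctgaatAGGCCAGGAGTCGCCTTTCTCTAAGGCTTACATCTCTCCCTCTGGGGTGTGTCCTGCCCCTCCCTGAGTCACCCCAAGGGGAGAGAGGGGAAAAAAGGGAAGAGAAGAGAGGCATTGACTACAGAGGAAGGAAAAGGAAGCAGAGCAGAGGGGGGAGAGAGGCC
GATA3: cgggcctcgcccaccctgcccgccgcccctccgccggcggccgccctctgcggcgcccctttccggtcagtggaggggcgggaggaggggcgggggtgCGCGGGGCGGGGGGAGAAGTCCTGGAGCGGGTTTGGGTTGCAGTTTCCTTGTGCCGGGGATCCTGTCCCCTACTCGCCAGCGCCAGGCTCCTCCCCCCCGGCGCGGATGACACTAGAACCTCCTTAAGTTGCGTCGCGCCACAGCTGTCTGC
Clusters covered 74 of the printed bases for MALAT1, 164 for CEBPE and 152 for GATA3. Of 35116 such windows of 250 bases, 44.2% hold TAGG and 43.6% hold CCTA, so a motif here is common. A match describes the letters only.

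High-score clusters were few but held a large part of the signal. There were 4973 in SH-SY5Y WT (0.880% of that list), 4138 in SH-SY5Y D262V (0.792%), 1776 in Flp-In WT (0.348%) and 2510 in Flp-In D262V (0.526%), and they carried 16.3%, 17.4%, 8.66% and 11.8% of the summed score of their lists. Their median scores were 1389, 1421.5, 1348 and 1372.5, against 55, 53, 45 and 44 over all clusters. The order of D262V and WT in number of high-score clusters was therefore opposite in the 2 lines, and the scaling between lists is unknown. Most of these clusters had the greatest width found in the lists, 199 bases: 81.5%, 80.3%, 68.8% and 71.0%, against 30.6%, 28.1%, 20.1% and 19.0% of the clusters below 1000. Neighbouring clusters of 1 gene overlap or abut and share reads, so they are not independent sites. The clusters fell into 3567, 2921, 1358 and 1923 merged regions and 1017, 776, 789 and 1140 genes.

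**Figure D1:**
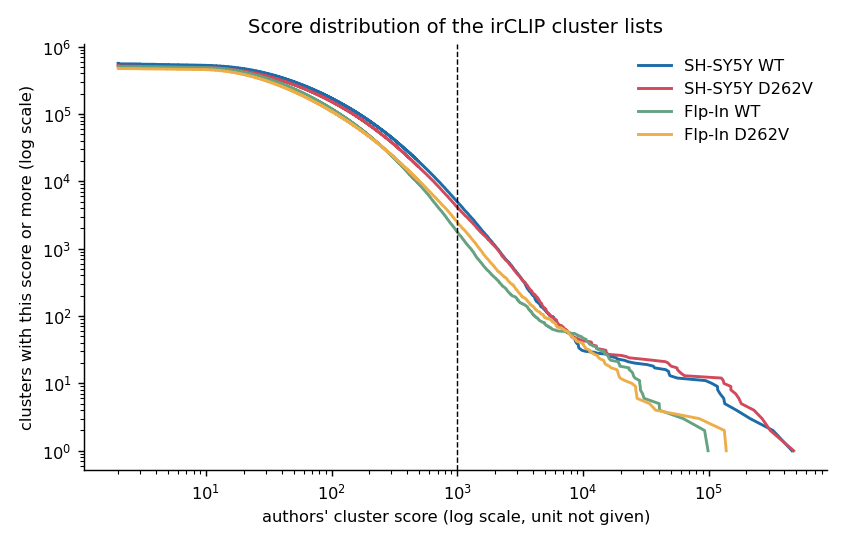
Number of clusters at or above each score (both axes logarithmic) in the 4 lists, with the threshold of 1000 as a dashed line. All 4 curves fall steeply past the threshold, and 30, 42, 46 and 38 clusters reach 10000 in SH-SY5Y WT, SH-SY5Y D262V, Flp-In WT and Flp-In D262V.

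The threshold cuts a continuous distribution. In SH-SY5Y WT, clusters in GPBP1L1, DPYD and TENM4 scored 1000 and clusters in SUZ12P1, MEMO1 and CDC42EP3 scored 999. In SH-SY5Y D262V, LRP6, MEIS2 and DNMT3A stood at 1000 and ADGRL2, ARL3 and KLRG1 at 999. In Flp-In WT, TTC28 and KCNQ5 stood at 1000, SRRM2 at 1001, ATP2B1 and ALG13 at 999 and METAP2 at 998. In Flp-In D262V, SIK3, ARHGAP5 and BAZ1A stood at 1000 and DLEU1, PMAIP1 and FBXO17 at 999. A gene without a high-score cluster in a list can thus have one just below it.

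Protein-coding genes held most of the clusters and long noncoding RNAs held the tallest. Protein-coding genes named 93.0% of the high-score clusters in SH-SY5Y WT, 91.1% in SH-SY5Y D262V, 86.8% in Flp-In WT and 90.3% in Flp-In D262V. Long noncoding RNAs named 5.71% (exact binomial 95% interval 5.08% to 6.39%), 7.90% (7.10% to 8.77%), 10.9% (9.46% to 12.4%) and 8.37% (7.31% to 9.52%). Below the threshold they named 3.14%, 3.47%, 2.76% and 2.64%. Their share of the summed high scores was 25.8%, 34.0%, 33.1% and 22.6%, from 46, 48, 41 and 51 genes. That share was not spread evenly over these genes. MALAT1 alone had 22, 25, 23 and 21 of the clusters, with median scores of 52892.5, 60872, 13211 and 10223. Medians over all high-score clusters were 1389, 1421.5, 1348 and 1372.5. The share without MALAT1 was not computed. The intervals above, like all binomial intervals here, cover counting error only.

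The remaining classes were small. Pseudogenes named 23, 17, 27 and 22 clusters, most often SUZ12P1, a truncated copy of the Polycomb gene SUZ12, with 12, 7, 10 and 5; reads of such copies may be shared with the parent gene. Ribosomal RNA precursor labels named 3 clusters in each Flp-In list and 0 in the SH-SY5Y lists, where 0 allows a share of up to 0.0603% and 0.0725%. The mitochondrial chromosome held none of the high-score clusters in any list. Names with no RefSeq entry accounted for 41, 22, 6 and 5 clusters, and in the Flp-In lists 3 and 1 more had an entry on the opposite strand only.

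The nuclear noncoding RNAs MALAT1, NEAT1 and XIST were prominent in every list. MALAT1, a nuclear speckle RNA, held the top score of each list: 461858 in SH-SY5Y WT, 475729 in SH-SY5Y D262V, 99067 in Flp-In WT and 138292 in Flp-In D262V. It had 22, 25, 23 and 21 high-score clusters, and 54 of these joined into a single region, chr11:65498971-65500728 on the plus strand, 1758 bases long. The other MALAT1 regions present in all 4 lists were chr11:65501718-65502070, chr11:65502593-65503219 and chr11:65503578-65504021. The median MALAT1 score was 52892.5, 60872, 13211 and 10223, so many of its clusters, not 1 peak, stood far above the threshold.

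NEAT1, the scaffold of paraspeckles, had 12, 14, 12 and 12 high-score clusters with top scores of 15919, 23224, 12876 and 13353, the tallest in chr11:65440234-65440895 on the plus strand. XIST, the RNA that coats the inactive X chromosome, had 26 and 25 clusters in the SH-SY5Y lists (top scores 8688 and 9644) and 60 and 57 in the Flp-In lists (40726 and 26976). The outermost XIST clusters were 95.3% to 97.2% of the gene's length apart, with 48 of them in chrX:73822360-73824596 on the minus strand. DANT2, a noncoding RNA of the DXZ4 repeat locus on the X chromosome, had 17, 22, 3 and 6.

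**Figure D2:**
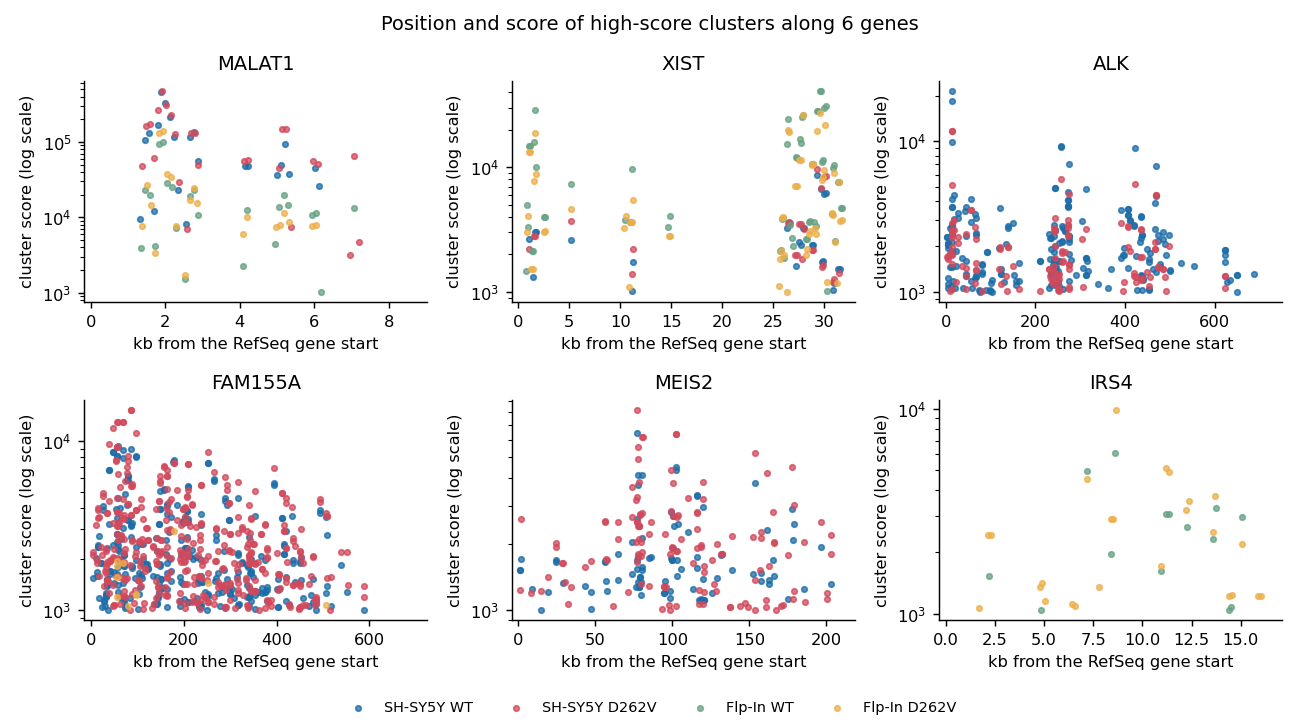
Score (logarithmic axis) against distance from the RefSeq gene start, in kb, for each high-score cluster of 6 genes; colours are the 4 lists. MALAT1 clusters gather in the same places in all 4 lists, XIST clusters lie toward both ends of the gene and are more numerous in the Flp-In lists, ALK, FAM155A and MEIS2 clusters spread over most of very long genes in the SH-SY5Y lists, and IRS4 has them in the Flp-In lists alone.

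HTT, which encodes huntingtin, was the clearest exception to the wide clusters. It had a single high-score cluster in each list, at chr4:3158770-3158821 on the plus strand, with widths of 51, 49, 51 and 51 bases. The scores were 123651, 182102, 62889 and 84278, which ranked 7, 5, 3 and 3 in the lists. HTT had 63 clusters of any score in SH-SY5Y WT, so this site stood alone above the threshold. HTT RNA, measured by RNA-seq, was at 31.6 ± 1.91 junction reads scaled to library size (CPM, counts divided by the library's total and multiplied by 1000000; SD, n = 3) in SH-SY5Y WT and 28.1 ± 4.54 in homozygous D262V (n = 3), and 10.5 ± 0.650 and 18.5 ± 7.28 in Flp-In WT and D262V. The sequence under the cluster was not read here, and what makes this site narrow and tall was not tested. High-score clusters of 60 bases or fewer, HTT included, numbered 18, 25, 18 and 5 in the lists, and the others scored lower. The tallest of them were both in SH-SY5Y D262V: DOK6, an adaptor of receptor kinases, had a 44-base cluster scoring 5446 and PRKCA, protein kinase C alpha, a 39-base cluster scoring 4945 (chr17:66409007-66409045).

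Of the genes with regions found in all 4 lists, several that encode splicing proteins are described first; the share of such genes was not tested. PNISR, a serine/arginine-rich partner of pinin, had 13, 14, 12 and 11 high-score clusters with top scores of 32450, 36428, 19240 and 26318, 36 of them in chr6:99400510-99401721 on the minus strand. LUC7L3, a protein associated with the U1 small nuclear ribonucleoprotein, had 14, 14, 9 and 9 clusters (top scores 5096, 6321, 6352 and 10312). PNN, pinin itself, had 6, 4, 13 and 13 (3168, 2895, 8926 and 14883; chr14:39180454-39181989, plus strand). RBM25, a regulator of alternative splicing, had 6, 8, 7 and 10 (3748, 2470, 6058 and 12272; chr14:73102977-73103561, plus strand). The tallest cluster of each gene lay in a region covered in all 4 lists, and LUC7L3 had several such regions.

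Lower scores were shared in the same way by HNRNPD, an hnRNP that binds AU-rich elements (6, 4, 2 and 2 clusters), and SFPQ, a paraspeckle protein (2, 2, 4 and 4). SRPK2, a kinase of serine/arginine-rich splicing factors, had top scores of 4089, 2278, 3016 and 3007 at chr7:105376373-105376736 on the minus strand. TRA2B, a splicing activator, and PRPF38B, a spliceosome-associated protein, also had regions in all 4 lists, at chr3:185931507-185931939 (minus strand) and chr1:108699112-108700022 (plus strand). Outside RNA processing, all-list regions were found in RPS14, a small-subunit ribosomal protein (1 cluster in each list; 2466, 3214, 5311 and 4909), PIP5K1A, a phosphoinositide kinase (3, 1, 2 and 2), ZNF292, a zinc finger gene (12, 8, 2 and 3), URI1, a prefoldin-like protein (1, 2, 3 and 2), and AUTS2, a long neurodevelopmental gene (47, 32, 7 and 8). In all, 340 regions in 236 genes were covered in all 4 lists, which is 6.21% of the merged regions, with a median length of 314.5 bases.

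Among 37 RNAs listed for links to hnRNPA1, 29 had a cluster of any score and 14 a high-score cluster. HNRNPA1 itself had 1 and 2 high-score clusters in the SH-SY5Y lists (top scores 1187 and 1196) and 4 and 4 in the Flp-In lists (2028 and 2590), with one overlapping chr12:54286060-54286258 on the plus strand in all 4 lists. In the Flp-In cells reads of the endogenous gene and of the transgene cannot be told apart. Of the other hnRNP genes, HNRNPC had 5, 4, 8 and 8 (top scores 1979, 2097, 2806 and 3821). HNRNPA3 had 2 and 2 in the Flp-In lists alone (1122 and 1481), where the SH-SY5Y lists reached 991 and 833. HNRNPA2B1 had 2 in SH-SY5Y WT alone (1099), where the other lists reached 708, 773 and 950. HNRNPH1 stayed below the threshold at 974, 758, 950 and 967.

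Other genes of the list had few high-score clusters. MATR3, which encodes the nuclear matrix protein matrin 3, had 2, 1, 8 and 6 high-score clusters, and the splicing factor SRSF3 had 1, 1, 2 and 1. TARDBP, which encodes TDP-43, had none, with top scores of 403, 342, 977 and 841. PKM, whose mutually exclusive exons are a textbook hnRNPA1 target, reached 1099 in SH-SY5Y WT, 1549 in Flp-In WT and 1140 in Flp-In D262V at chr15:72205108-72205316 on the minus strand, and 958 in SH-SY5Y D262V. APP, the amyloid precursor gene, had 4 high-score clusters in Flp-In D262V (top score 1421) and none in the others, whose top scores were 592, 487 and 607. CCND1, cyclin D1, had 1 in each SH-SY5Y list (4862 and 2802). SMN1, SMN2, MAPT and APAF1 had no cluster of any score.

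Small structured RNAs were named by 9, 8, 11 and 16 high-score clusters. RN7SK, the 7SK RNA, scored 4319, 4782, 5481 and 9900. MIR17HG, host of the miR-17 to miR-92 cluster that includes the hnRNPA1-bound miR-18a, had 1 cluster in each list (1286, 1147, 1472 and 1537) at chr13:91352958-91353121 on the plus strand. That cluster lay 2137 bases beyond MIR18A and 1567 bases beyond MIR92A1, so it did not touch a hairpin of the cluster. Hosts of box C/D and H/ACA small nucleolar RNAs supplied most of the others.

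GAS5, a host of many small nucleolar RNAs, had clusters at SNORD79 of up to 6214, 15377, 3464 and 5717 and at SNORD47 of 1003, 1639, 1578 and 1097. SNHG5 had a cluster at SNORD50A in each list (2589, 2761, 5559 and 4832). EIF4A2, a translation initiation helicase gene, scored 3263, 3934, 4535 and 3663 over SNORA81 and the MIR1248 hairpin printed above. RPSA had a high-score region at chr3:39408121-39408424 on the plus strand in every list (2376, 1772, 2597 and 2733). Its clusters named SNORA6 in SH-SY5Y WT and Flp-In D262V only. The 3 other printed hairpins had lower clusters: MIR6758 in MARS1 1167 in SH-SY5Y WT, 1067 in Flp-In WT and 1702 in Flp-In D262V, MIR3671 in JAK1 1366 in SH-SY5Y WT and 1072 in Flp-In D262V, and MIR8063 in MEIS2 1230 in SH-SY5Y D262V.

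Between genotypes, high-score clusters were largely the same places. In SH-SY5Y, 3351 of 4973 WT clusters (67.4%, exact binomial 95% interval 66.1% to 68.7%) overlapped a high-score D262V cluster on the same strand by at least 1 base, and 3356 of 4138 D262V clusters (81.1%, 79.9% to 82.3%) overlapped a WT one. In Flp-In cells the shares were 1520 of 1776 WT clusters (85.6%, 83.9% to 87.2%) and 1543 of 2510 D262V clusters (61.5%, 59.5% to 63.4%). In each line the longer list had the lower share. Counting clusters of any score in the other genotype, 99.6%, 99.9%, 99.7% and 99.4% were overlapped, in the order SH-SY5Y WT, SH-SY5Y D262V, Flp-In WT and Flp-In D262V. Unshared clusters mostly faced a cluster below the threshold, with median scores of 748, 807.5, 830 and 790. Of these facing clusters, 79.2%, 86.0%, 95.6% and 91.7% scored 500 or more.

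Sharing by score range is a description only, because the score sets both the range of a cluster and the threshold its partner has to pass. Of clusters from 1000 to below 2000, 60.6%, 75.2%, 81.9% and 51.9% were shared with the other genotype, and of clusters from 2000 to below 5000, 90.5%, 97.9%, 99.7% and 97.4%. With the threshold at 2000 in both lists, 65.7%, 71.3%, 90.0% and 63.9% were shared. By gene, in SH-SY5Y, 689 genes had high-score clusters in both genotypes, 67.7% of the WT genes and 88.8% of the D262V genes. In Flp-In cells, 695 did, 88.1% of the WT genes and 61.0% of the D262V genes. Of 328 genes with them in SH-SY5Y WT alone, 311 (94.8%) had a D262V cluster of 500 or more, and of 445 genes in Flp-In D262V alone, 424 (95.3%) had such a WT cluster.

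Between the lines the overlap was smaller. Of the WT clusters, 840 in SH-SY5Y (16.9%, 15.9% to 18.0%) overlapped a high-score Flp-In cluster, and 823 in Flp-In (46.3%, 44.0% to 48.7%) overlapped a SH-SY5Y one. Of the D262V clusters, 707 in SH-SY5Y (17.1%, 16.0% to 18.3%) and 685 in Flp-In (27.3%, 25.6% to 29.1%) did. Clusters of any score in the other line overlapped 68.7% and 78.0% of the SH-SY5Y clusters (WT and D262V) and 91.3% and 89.4% of the Flp-In clusters. At scores of 10000 or more, 86.7%, 81.0%, 93.5% and 92.1% were shared between lines (SH-SY5Y WT, SH-SY5Y D262V, Flp-In WT and Flp-In D262V). Only 30, 42, 46 and 38 clusters reached that score. Many of them were neighbouring, overlapping clusters of MALAT1, so these shares rest on few separate RNAs. Of the 1780 genes, 269 (15.1%) had a high-score cluster in all 4 lists, 325 in both SH-SY5Y lists alone and 314 in both Flp-In lists alone.

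**Figure D3:**
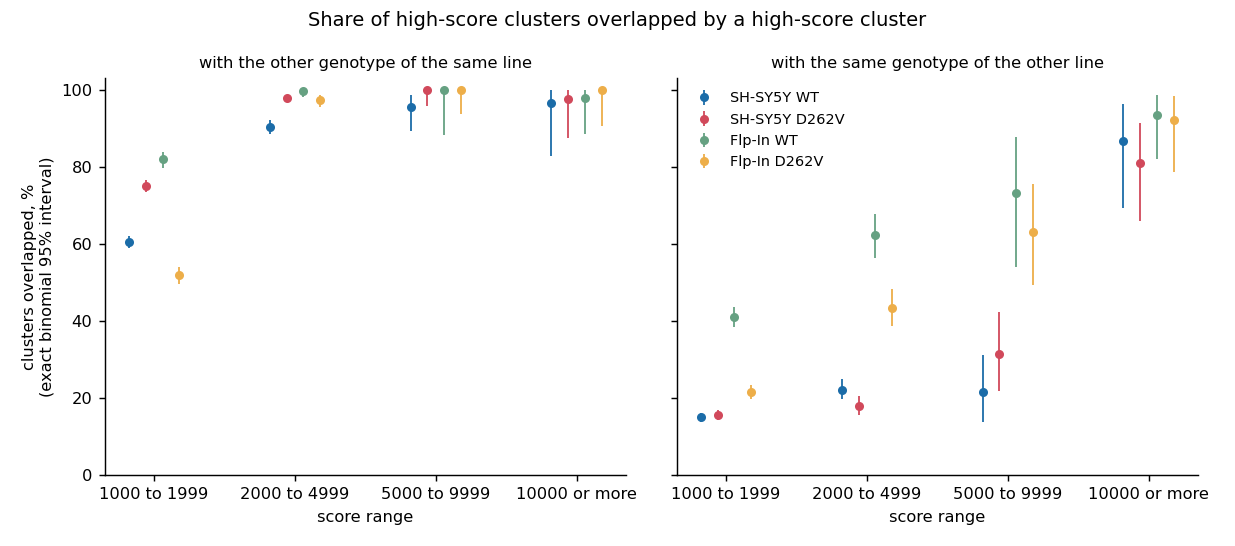
Percent of high-score clusters in 4 score ranges that a high-score cluster overlapped in the other genotype of the same line (left) or in the same genotype of the other line (right), with exact binomial 95% intervals. Sharing between genotypes is above 90% in each range from 2000 upward, and sharing between lines passes 90% only at 10000 or more and only in the Flp-In lists. The score sets both the ranges and the partner's threshold, so part of the rise is built in. Many clusters of 10000 or more are neighbours in MALAT1, so the intervals there do not cover separate sites.

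The genes with the most high-score clusters differed between the lines. In SH-SY5Y, FAM155A, an auxiliary protein of the NALCN sodium leak channel, had 310 in WT and 421 in D262V, against 0 and 11 in Flp-In. ALK, the receptor tyrosine kinase often mutated in neuroblastoma, had 219 and 131 and none in Flp-In; its clusters spanned 94.1% and 85.1% of a gene of 729 kb. UNC5C, a netrin receptor, had 117 and 45, MAML3, a Notch coactivator, 102 and 67, and MEIS2, a homeobox gene, 95 and 131, all with 0 in both Flp-In lists. Flp-In cells had clusters in these 3 genes below the threshold, with top scores of 996 and 622 for UNC5C, 574 and 738 for MAML3 and 714 and 856 for MEIS2. RGS5, a regulator of G protein signalling, had 50 and 47 with top scores of 18748 and 15543, and MIR137HG, the host transcript of the neuronal miR-137, had 56 and 61 with 9625 and 11667. Shared with the other line at lower numbers were EXOC4, an exocyst subunit (84, 100, 2 and 5), and PRKCA (43, 95, 1 and 0).

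In Flp-In cells the numbers per gene were smaller. ERC1, a scaffold protein of secretory sites, had 25 and 25 high-score clusters (top scores 5802 and 7208), and IRS4, an insulin receptor substrate, 14 and 25 (6119 and 9909), with none in SH-SY5Y. ERC1 nevertheless had SH-SY5Y clusters of up to 990 and 847, whereas those of IRS4 reached 160 and 179. KCNQ5, a potassium channel, had 24 and 22, and SLIT2, a secreted guidance protein, 23 and 22; SLIT2 had 1 SH-SY5Y WT cluster of score 14 and none in SH-SY5Y D262V. CEBPE, a myeloid transcription factor, had 4 and 4 (16054 and 13766) that included the gene start printed above, and SAT1, spermidine acetyltransferase, had 3 and 2 (16300 and 18610). EIF4G3, a translation initiation factor, had 8, 4, 19 and 25 across the 4 lists.

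**Figure D4:**
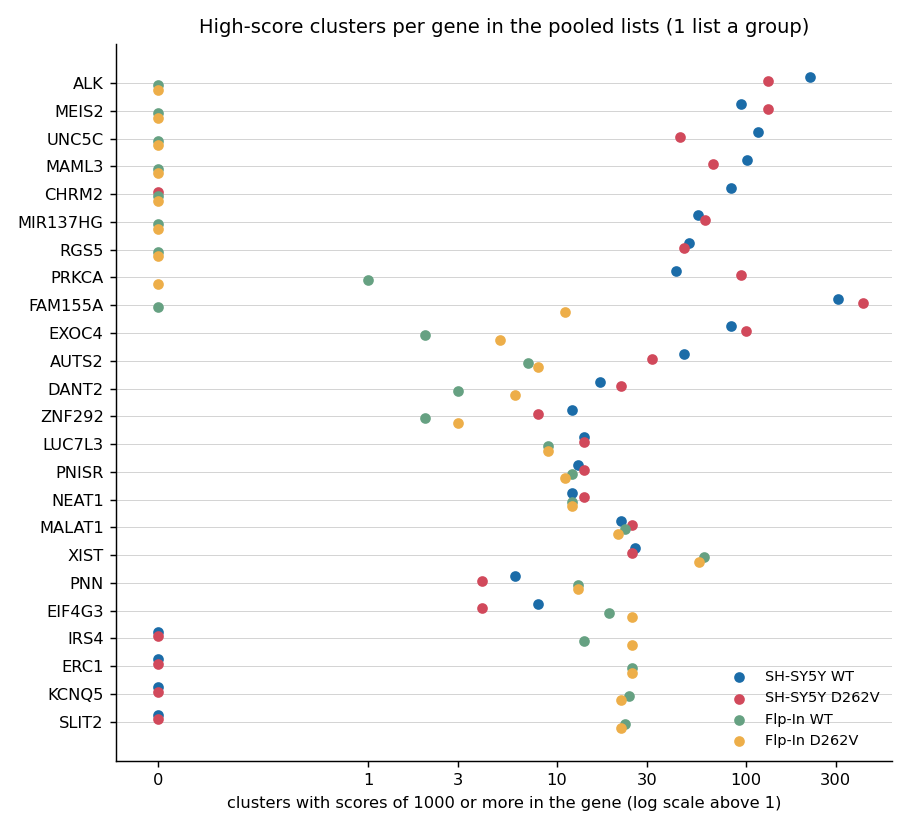
Number of high-score clusters (axis logarithmic above 1) per gene in the 4 lists, 1 point a list. FAM155A, ALK, UNC5C, MAML3 and MEIS2 have their high counts in the SH-SY5Y lists, ERC1, IRS4, KCNQ5 and SLIT2 in the Flp-In lists, and MALAT1 and NEAT1 have about the same count in all 4.

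The labelled cell types were checked against marker genes. Of 8 markers of noradrenergic neuroblastoma, 7 had a cluster in each SH-SY5Y list and 2 in each Flp-In list, and 7, 6, 0 and 0 had a high-score cluster. GATA3, a transcription factor of sympathetic neurons, had 13 and 8 (top scores 5893 and 3672), PHOX2A 4 and 4, HAND2 3 and 1 and STMN2, a neuronal microtubule regulator, 8 and 7. TH, which encodes tyrosine hydroxylase, had no cluster in any list. Of 6 kidney-lineage markers 1, 1, 2 and 3 had a cluster. EYA1 went against the list: it had 17 and 2 high-score clusters in SH-SY5Y and no cluster in Flp-In, and PAX8 and LHX1 had none anywhere.

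High-score clusters lay in long genes. The protein-coding genes that held them had median lengths of 90.3, 86.1, 63.6 and 78.9 kb, against 33.9, 35.4, 33.4 and 31.9 kb for protein-coding genes with lower clusters only. Genes over 200 kb made up 22.7%, 22.6%, 18.7% and 20.6% of the first kind and 6.10%, 6.38%, 6.16% and 5.21% of the second. Within genes, 14.0%, 12.9%, 15.2% and 15.9% of the high-score clusters lay in the first 10% of the gene, against 9.41%, 9.06%, 10.4% and 10.5% of the others, and 4.91%, 5.98%, 7.26% and 6.43% in the last 10%, against 8.48%, 8.78%, 8.23% and 8.12%. A longer gene offers more room for clusters, and these shares are not adjusted for that.

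Of 91 SH-SY5Y genes with 10 or more high-score clusters in either list, 18 had at least 2 times as many in WT, 8 at least 2 times as many in D262V, and 65 stayed within 2-fold. CHRM2, the M2 muscarinic receptor gene, went from 84 in WT to 0 in D262V, where its 170 clusters reached 869. GRM8, a metabotropic glutamate receptor gene, went from 93 to 3, PDE4B, a cyclic AMP phosphodiesterase gene, from 50 to 1, and UNC5C from 117 to 45. In the other direction, COP1, a ubiquitin ligase gene, went from 9 to 54, CCSER1 from 0 to 43, PRKCA from 43 to 95 and FGF14, a modulator of sodium channels, from 25 to 50. In Flp-In cells, 24 of 26 such genes stayed within 2-fold.

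RNA-seq of the same lines, which the score rule did not use, gave the RNA of these genes with replicates. Total reads ran from 87.3 to 159 M a library in SH-SY5Y and from 35.3 to 49.1 M in Flp-In (M, read counts divided by 1000000), but the deposited gene counts held only 3.62 to 6.85 M and 1.99 to 2.91 M of them. Counts lay below the gene's own splice-junction reads for 600 of 651 genes with high-score clusters (92.2%) in SH-SY5Y and 535 of 569 (94.0%) in Flp-In. The library kit keeps the strand, and no source used here states the strand setting of the counting. HAND2-AS1, which runs antisense to HAND2, had 3864 ± 151 CPM by gene counts (SD, n = 3 WT) against 119 ± 6.52 for HAND2, whereas junction reads in the same unit were 571 ± 56.4 against 833 ± 14.3. Which strand the gene counts hold was not tested, so a gene-count result below cannot be assigned to a gene's own strand, and junction reads summed per gene, also as CPM, are given beside them. These sums cover only junctions of the splice events the authors listed, retained introns left out. They can move with splice choice as well as with the amount of RNA. In bulk samples fewer expressing cells and less RNA per cell cannot be told apart.

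HNRNPA1 was compared first. In SH-SY5Y its junction CPM were 4563, 4689 and 3281 in WT and 2288, 2137 and 2077 in homozygous D262V, so the groups did not overlap. The fall was 0.85 on the log2 scale (SE 0.124, adjusted p = 7.8782e-05, edgeR's quasi-likelihood test with Benjamini-Hochberg adjustment), whereas its gene-count CPM of 38.1, 37.4 and 43.7 against 36.7, 42.6 and 25.5 overlapped (adjusted p = 0.753). In Flp-In, junction CPM were 10370, 10937 and 10396 in WT and 10496, 10407 and 10063 in D262V (edgeR adjusted p = 0.571). The mutated codon itself cannot be read from these values. In SH-SY5Y, HNRNPA1 also shifted in splice choice, as given below. Its junction reads cannot tell that shift from a change in its amount. The part of the HNRNPA1 level in the cluster scores was not tested.

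By junction reads, 91 of 656 tested genes with high-score clusters (13.9%) passed an adjusted p of 0.05 in SH-SY5Y, 49 higher and 42 lower in D262V. Of all 4717 genes tested, 10.8% passed, 4.75% higher and 6.06% lower. Of 1104 genes with high-score clusters, 658 had junction reads and 656 passed the filter on low counts. The count of 91 was 59, 60 and 56 without D262V replicates 1, 2 and 3. MARCHF11, a ubiquitin ligase gene with 46 and 57 high-score clusters in WT and D262V, had 256, 226 and 314 junction CPM in WT and 1060, 1137 and 1065 in D262V, a rise of 2.13 on the log2 scale (SE 0.144, adjusted p = 2.2429e-09). COP1, whose high-score clusters went from 9 to 54, had 339, 307 and 388 in WT and 931, 926 and 914 in D262V (log2 1.51, SE 0.132, adjusted p = 1.1667e-07). The noncoding RNA LINCR-0002, with 0 and 9 clusters, went from 68.5 ± 20.4 to 269 ± 10.9 (log2 2.07, adjusted p = 2.052e-07). In each of these genes every D262V library lay above every WT library. CASC15 and MEIS1 rose by less certain margins (log2 1.80 and 1.50, adjusted p = 0.0170 and 0.0247), and both lost the call when WT replicate 2 or D262V replicate 1 was left out (adjusted p = 0.0514 and 0.0760 for CASC15, 0.136 and 0.166 for MEIS1).

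Of the genes lower in D262V, RRM2, a subunit of ribonucleotide reductase with 7 and 1 high-score clusters, went from 205 ± 11.9 to 53.3 ± 13.2 junction CPM (log2 -1.86, adjusted p = 1.0446e-06). EYA1, a developmental phosphatase and coactivator with 17 and 2 clusters, went from 123 ± 31.1 to 35.4 ± 4.42 (log2 -1.70, adjusted p = 2.3262e-05). CNTN4, a neural adhesion gene with 2 and 0, went from 81.6 ± 16.5 to 25.9 ± 1.30 (log2 -1.55, adjusted p = 0.000195). HTR1E, a serotonin receptor gene with 6 and 0, and HS6ST2, a heparan sulfate sulfotransferase gene with 5 and 0, were lower by log2 -1.90 and -1.38 (adjusted p = 0.0139 and 0.00765) and lost the call without some single libraries, among them WT replicate 1 (adjusted p = 0.0863 and 0.0649). All p-values here are from edgeR's quasi-likelihood test, n = 3 a group. Each of these 5 genes had fewer high-score clusters in D262V, and of the 5 named higher genes MARCHF11, COP1 and LINCR-0002 had more and CASC15 and MEIS1 fewer. These genes were named for their RNA change, and their cluster numbers are given as values only.

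Changes in cluster number were set beside the RNA of the same genes. Of the 18 genes with at least 2 times as many high-score clusters in WT, 4 had enough junction reads to be tested, and EYA1 was the 1 called. By gene counts 11 of the 18 were tested, with a median log2 of 0.23 and 6 above 0, and BMPR1B was the 1 called. Of the 8 with at least 2 times as many in D262V, 5 were tested and 3 were called higher: COP1, ELAVL4, a neuronal RNA-binding protein gene (9 and 18 clusters, log2 0.90, adjusted p = 3.5763e-05), and ROBO2, an axon guidance receptor gene (1 and 14, log2 0.60, adjusted p = 0.0404). By gene counts 3 of the 8 were tested and 0 called. Of 46 tested genes within 2-fold, 10 were called higher, among them MARCHF11, LUC7L3 (log2 0.51) and ALCAM, an adhesion gene (37 and 41 clusters, log2 1.06). For ALK, junction reads were 787 ± 167 in WT and 672 ± 64.0 in D262V (adjusted p = 0.643), and for MEIS2 290 ± 26.0 and 279 ± 23.6 (adjusted p = 0.930). Among genes with high-score clusters in WT alone, 7 were higher and 18 lower of 167 tested, with a median log2 of -0.12, against 4.75% higher, 6.06% lower and -0.01 over all genes. With clusters in both genotypes 39 were higher and 22 lower of 440, and in D262V alone 3 and 2 of 49. By gene counts the WT-alone genes had a median of 0.04, as did all genes, with 3 higher and 5 lower of 206. CHRM2 and GRM8 could be tested by neither measure, and UNC5C by gene counts only (log2 -1.40, adjusted p = 0.351).

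By gene counts, 17 of 727 tested genes with high-score clusters passed in SH-SY5Y (2.34%; 6 higher and 11 lower in D262V), against 3.67% of 11313 genes (1.56% higher and 2.11% lower). Without homozygous D262V replicate 1 there were 6, and without replicate 3 there were 9. The largest rise was in NAV2, a gene of neurite growth (11.2 ± 4.05 to 45.0 ± 5.93 CPM, log2 1.92, adjusted p = 0.0108), and the largest fall in BMPR1B, a BMP receptor gene with 13 and 0 high-score clusters (10.7 ± 4.18 to 0.269 ± 0.466, adjusted p = 0.0326). LCORL went from 511 ± 8.49 to 232 ± 14.4 (log2 -1.24, adjusted p = 0.000144), and it and KLC1, a kinesin light chain gene (log2 -1.34, adjusted p = 0.00258), were the 2 of 10 named genes that kept the call without each library in turn. MALAT1 had 78.6, 65.6 and 79.9 CPM in WT and 170, 160 and 156 in D262V (log2 1.02, adjusted p = 0.00522), and its adjusted p without D262V replicate 1 was 0.0535. MALAT1 junction reads were 38.3 ± 5.19 and 57.4 ± 14.0 (adjusted p = 0.109). MARS1, MARCHF11 and HS6ST2 were called by both measures in the same direction, out of 457 genes tested in both. GSE1 was lower (log2 -1.09, adjusted p = 0.00894) and PAXBP1 higher (log2 1.09, adjusted p = 0.0204).

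In Flp-In cells, 114 of 565 tested genes with high-score clusters (20.2%) passed by junction reads, 54 higher and 60 lower in D262V, against 16.5% of 3263 genes (7.69% higher and 8.8% lower). Of 1234 genes with high-score clusters, 567 had junction reads. The count of 114 was 75 without D262V replicate 1. GK, glycerol kinase, with 2 and 1 high-score clusters, had 131, 157 and 183 junction CPM in WT and 17.0, 5.24 and 15.7 in D262V, a fall of 3.66 on the log2 scale (SE 0.216, adjusted p = 6.8321e-15). SMC4, a condensin subunit gene with 3 and 5, had 2316, 2373 and 2220 in WT and 4362, 4246 and 4838 in D262V (log2 0.92, adjusted p = 2.1247e-10). TFDP1, the E2F partner gene with 0 and 3, went from 948 ± 55.5 to 1747 ± 26.4 (log2 0.84, adjusted p = 4.9118e-10). ERC1, with 25 and 25, had gene counts of 15.0 CPM in WT and 15.2 in D262V (log2 -0.02, edgeR adjusted p = 0.987). Its junction reads, in contrast, went from 152 ± 17.1 to 274 ± 15.2 (log2 0.81, edgeR adjusted p = 7.5344e-07), with its number of high-score clusters unchanged. UTRN, the utrophin gene, was lower (log2 -1.46, adjusted p = 1.995e-05), as were MIPOL1 (log2 -0.99), STRN3 (log2 -0.82) and USP16 (log2 -0.79), although these 4 genes had no high-score cluster in WT and 1, 3, 2 and 2 in D262V. DGKH and LRCH3 were higher (log2 2.26 and 0.83), and LRCH3 had an adjusted p of 0.0550 without WT replicate 1 in edgeR's test. IRS4, whose clusters went from 14 to 25, rose by 0.32 on the log2 scale (adjusted p = 0.00793), and XIST, with 60 and 57, by 0.42 (adjusted p = 0.00337).

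By gene counts, 42 of 868 tested Flp-In genes with high-score clusters passed (4.84%; 28 higher and 14 lower), against 5.84% of 9148 genes (2.75% higher and 3.08% lower). Leaving out 1 library gave 25, 23 and 18 without WT replicates 1, 2 and 3, and 77 and 28 without D262V replicates 2 and 3. GK had 16.8, 21.1 and 29.2 CPM in WT and 1.07, 1.78 and 1.27 in D262V (log2 -4.03, adjusted p = 1.4356e-05), in the same direction as its junction reads. HOXB6, a homeobox gene, went from 57.8 ± 6.92 to 8.34 ± 1.38 (log2 -2.83, adjusted p = 3.8632e-07). PM20D2, KRR1 and ZNF711 were also lower (log2 -2.03, -1.26 and -1.08). HM13, HOXA6, RPS19, RPLP1 and MYH9 were higher (log2 2.78, 2.10, 2.07, 1.83 and 1.70), but only MYH9 kept the call without each library in turn; RPS19 counts were 29.5, 14.0 and 19.3 in WT and 214, 21.0 and 50.7 in D262V, so its groups overlapped, and without D262V replicate 1 the adjusted p was 0.230 for RPS19 and 0.354 for RPLP1. Of 458 genes tested by both measures, 12 were called by both, 10 in the same direction; GAS5 and SIM2 were opposite.

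Splice choices were examined because hnRNPA1 acts on splice sites. In the authors' deposited tables, 70 of 612 genes with high-score clusters (11.4%) had a changed junction in SH-SY5Y, against 9.62% of 4274 genes, where changed means an adjusted p under 0.05 in the authors' deposited table, a mean usage moved by at least 10 percentage points, at least 20 reads per library over the choice and groups that do not overlap. In Flp-In cells, 30 of 539 did (5.57%), against 4.48% of 2947. The tables list events the authors had already selected. A high-score cluster lay under or within 1 kb of the changed junction in 22 of the 70 and 9 of the 30 genes, and within 200 bases of a listed end of the leading junction in 3 and 3. The same shares were not computed for unchanged junctions, so whether changed junctions differ from them was not tested. Composite events were the commonest kind, in 43 and 16 genes, before cassette exons, in 12 and 9. A long intron spans more clusters by its length, and this was not adjusted for.

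In SH-SY5Y, HNRNPA1 itself had the largest shift of the 70 genes. Its junction chr12:54283234-54284256 (plus strand) was listed at 0% of its choice in each WT library and took 91.9%, 90.8% and 86.9% in D262V (adjusted p = 1.9275e-33 in the authors' deposited table). No high-score cluster of the SH-SY5Y lists lay under it or within 1 kb. The Flp-In lists had high-score clusters within 1 kb, at chr12:54284385-54284583 in WT (1602) and chr12:54284382-54284580 in D262V (2069). LUC7L, a U1-associated splicing factor gene named after its value was seen, went from 62.9%, 84.6% and 91.0% to 7.07%, 35.0% and 27.0%, also with no SH-SY5Y high-score cluster there. Among the 22 genes that had one, the largest shift was in UBE3A, the ubiquitin ligase gene of Angelman syndrome, where the junction chr15:25405502-25438487 (minus strand) took 82.0%, 100% and 95% of its choice in WT and 33.3%, 44.1% and 39.1% in D262V (adjusted p = 0.0481 in the authors' deposited table); 3 WT and 1 D262V high-score clusters lay there. In RBM39, a splicing factor gene, the junction chr20:35739017-35740822 (minus strand) fell from 68.4%, 72.9% and 65.8% to 29.2%, 22.4% and 28.7% (adjusted p = 0.000637 in the authors' deposited table), with a cluster of up to 1513 at 417 bases from it in both genotypes. In COP1, the junction chr1:176046324-176081150 (minus strand) fell from 45.2%, 39.4% and 49.6% to 11.3%, 8.29% and 16.5% (adjusted p = 0.00475 in the authors' deposited table), across 7 WT and 15 D262V high-score clusters. COP1 differed between the genotypes in high-score clusters, junction reads and splice choice. The last 2 draw on the same junction counts and are not separate measures. By gene counts COP1 was at 0 CPM in both genotypes.

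Other named shifts had a high-score cluster under the junction's intron or within 1 kb of it, in some cases far from either splice site. In SRPK2, a junction rose from 19.3%, 15.1% and 12.7% to 43.3%, 39.8% and 59.3% (adjusted p = 0.0418 in the authors' deposited table), with 1 high-score cluster in each genotype, 4396 bases from the nearer splice site. In KMT2E, a chromatin regulator gene, a cassette exon junction fell from 88.9%, 94.4% and 100% to 63.4%, 53.7% and 63.8% (adjusted p = 0.0227 in the authors' deposited table). It lay 47 bases from a WT cluster that scored 1013, just past the threshold, and D262V had no high-score cluster there. WASF1, an actin regulator gene, fell from 100% in each WT library to 72.0%, 44.4% and 51.0%, and DNAJC6, a clathrin-uncoating cofactor gene, from 36.8%, 52.2% and 23.9% to 0% in each D262V library; their clusters lay 9353 and 43699 bases from a splice site. ZNF536, a zinc finger gene, fell from 62.7% ± 7.22 (SD, n = 3) to 25.3% ± 2.96 with its cluster 14666 bases away, and CCDC144NL-AS1, a noncoding RNA, rose from 3.94% ± 3.69 to 37.4% ± 4.27. RBIS rose from 21.2% ± 4.93 to 49.2% ± 1.82, at a junction whose splice site a high-score cluster overlapped.

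In Flp-In cells the shifts were smaller. CDKN2A, the p16 and p14ARF gene, had an alternative 5′ splice site used at 41.4%, 42.5% and 43.5% in WT and 28.1%, 26.7% and 23.9% in D262V (adjusted p = 0.000851 in the authors' deposited table). ZNF711, a zinc finger gene, had a retained-intron event at chrX:85246022-85246928 (plus strand), 41 bases from a high-score cluster present in both genotypes. The usage listed is that of the junction across the whole intron, the spliced form. It fell from 33.7%, 38.0% and 38.3% to 21.5%, 14.6% and 24.2% (adjusted p = 0.0484 in the authors' deposited table). For NAP1L1, a nucleosome assembly protein gene with a retained-intron event, the usage listed is not that of the spliced form. It belongs to chr12:76047619-76047816 (minus strand), which lies across an end of the event's intron and does not span that intron. This usage rose from 48.1%, 43.7% and 46.0% to 59.3%, 57.2% and 61.7% (adjusted p = 0.0166 in the authors' deposited table), 37 bases from a high-score cluster. That the groups do not overlap was part of the rule that chose these junctions. C21orf58 rose from 57.7% ± 3.06 to 84.3% ± 0.520, KIF23, a cytokinesis kinesin gene, from 56.3% ± 2.37 to 72.7% ± 2.96, XRN2, a nuclear exonuclease gene, from 3.91% ± 1.44 to 14.4% ± 2.44, DZIP1 from 3.38% ± 1.76 to 13.5% ± 1.56 and ARIH2 from 0% in each WT library to 25%, 20% and 13.9%. DNAH14 fell from 81.0% ± 2.35 to 63.3% ± 2.52.

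**Figure D5:**
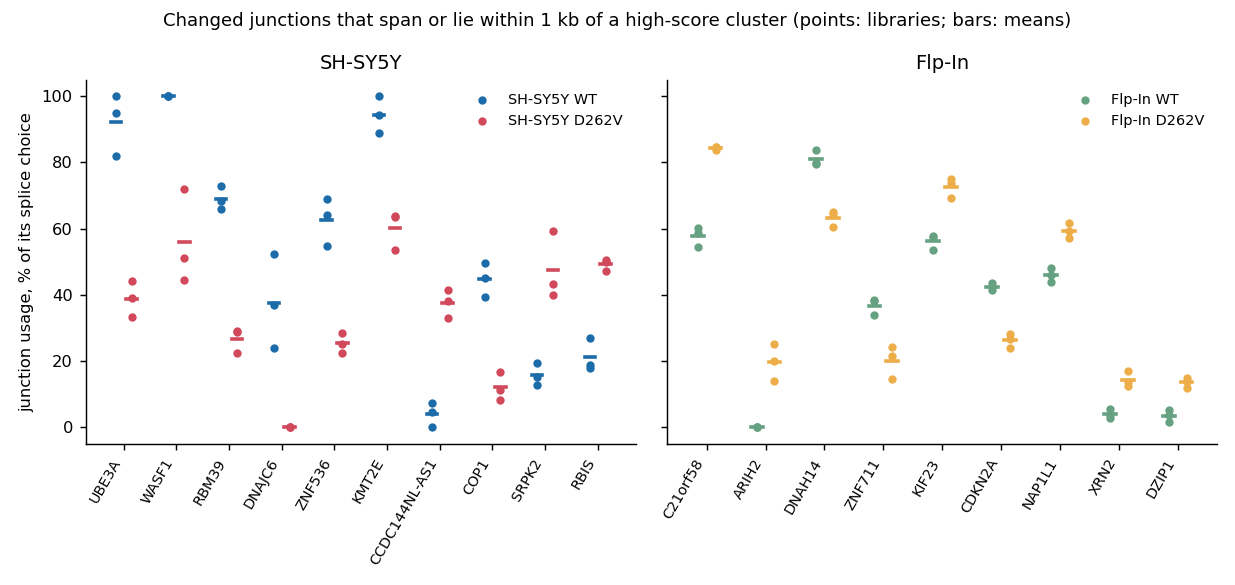
Usage of the changed junction, in percent of its splice choice, for the named genes of SH-SY5Y (left) and Flp-In (right); points are libraries and bars are means of 3. In every gene shown the WT and D262V points are apart, because that was part of the rule.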

How the data were processed

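irCLIP and poly(A) RNA-seq were analysed from deposited files on hg38. Per the submitters' processing notes, STAR 2.5.3a, HTSeq, DESeq2 and Cufflinks were used; no source used here names the cluster caller or the meaning of the score. The authors' cluster score, deposited per cluster for 3 merged samples a list, chose the clusters (1000 or more). Repeated rows of a cluster were merged (14055 rows to 13397). Each was given a gene of its name that overlapped it in RefSeq on the same strand. Failing that, it was given one whose strand was not known. Protein-coding genes were preferred, then the shortest gene. Sharing needed 1 base of same-strand overlap. Deposited gene counts, and junction counts from the authors' splicing tables summed per gene, were tested with edgeR 4.0.16 (R 4.3.3; TMM, filterByExpr, quasi-likelihood, adjusted p under 0.05 over all genes), tested on simulated data; SE is the log2 change divided by the root of its F statistic, and CPM is counts scaled to library size. Rows naming no gene held 95.7% to 95.9% (SH-SY5Y) and 93.8% to 94.4% (Flp-In) of reads and were left out. Splicing calls use the authors' deposited p-value and junction usage, which the authors gave as a percentage of the reads of a splice choice.

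Genes named in the text are, in each list, those with the 10 highest scores and the 5 with most high-score clusters, up to 20 shared by all 4 lists, the clusters beside the threshold, listed hnRNPA1-linked genes, up to 5 genes risen and 5 fallen per RNA comparison, and up to 10 per splicing comparison; others were named after their values were seen. The clusters and lists were chosen with earlier results of these data known. Alternatives were other thresholds, overlaps and annotations, DESeq2 1.42.0, no filter, a replicate block and leaving out each library.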

Additional observations from a re-analysis of the deposited data

Results flagged for a closer look

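Some genes with high-score clusters passed edgeR's quasi-likelihood test by junction reads in both lines, with all D262V libraries on one side of the WT libraries in SH-SY5Y and on the other side in Flp-In. The difference between the lines was not tested. The log2 change of D262V over WT was -0.83 in SH-SY5Y and 0.32 in Flp-In for EZH2, the Polycomb methyltransferase gene. It was -0.94 and 0.92 for SMC4 and -0.42 and 0.27 for XPO1, a nuclear export receptor gene. It was 0.77 and -0.29 for GAS5 and 0.47 and -0.32 for MARS1, a tRNA synthetase gene.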

How the results depend on the processing

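Counts of high-score clusters follow the threshold: 19286, 16005, 8910 and 10089 at 500 and 1108, 1073, 370 and 523 at 2000 (SH-SY5Y WT, SH-SY5Y D262V, Flp-In WT and Flp-In D262V, as below). Noncoding RNAs named 4.01%, 5.52%, 4.80% and 4.40% at 500 and 11.0%, 14.2%, 28.4% and 18.9% at 2000. By the RefSeq gene known to be on the same strand at the cluster they were 5.07%, 6.89%, 9.74% and 7.41%. Protein-coding genes then named 82.7%, 81.4%, 76.2% and 78.3%, lower than the main shares of 93.0%, 91.1%, 86.8% and 90.3%. Sharing between genotypes was 71.8%, 85.3%, 81.9% and 73.0% at 500 and 65.7%, 71.3%, 90.0% and 63.9% at 2000. It was 63.8%, 77.2%, 82.3% and 58.5% with overlap of at least 50% of the bases of the shorter cluster. With equal numbers of clusters it was 69.8%, 71.7%, 74.5% and 73.6%, and with any cluster 99.6%, 99.9%, 99.7% and 99.4%. Sharing between lines was 27.0%, 26.0%, 54.4% and 38.9% at 500, 12.2%, 11.2%, 38.1% and 22.6% at 2000, 15.9%, 43.4% and 25.4% with that overlap (SH-SY5Y D262V and both Flp-In lists), 22.4%, 22.5% and 17.2% with equal numbers (SH-SY5Y WT and both Flp-In lists), and 68.7%, 78.0%, 91.3% and 89.4% with any cluster.

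Called genes by gene counts in SH-SY5Y numbered 8 when high-score clusters in both genotypes were required, 30 with no filter on low counts, 27 by DESeq2, 91 by junction reads and 6 to 20 leaving out each library in turn. In Flp-In they numbered 25, 47, 30, 114 and 18 to 77. Changed junctions of at least 20 points were found in 29 and 8 genes. With the replicate number as a block the gene-count calls were 15 and 35; same-numbered libraries did not vary together (correlations of -0.05 to 0.05), so the numbers do not pair them. Of the 10 genes with the largest changes per comparison and measure, none reversed direction under other size factors, no filter, DESeq2, the block or leaving out a library; between the measures, GAS5 and SIM2 were called in opposite directions in Flp-In. Read depth behind the irCLIP clusters is unknown.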
